A study of Homo sapiens with 6 samples.

Results

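The DEK peaks described here are all peaks of both DEK precipitations that overlap chr13:79000000-96000000 (hg19), a gene-poor stretch of 17 Mb at chromosome band 13q31. This rule gave 1161 peaks, 431 of the 15017 peaks of replicate 1 and 730 of the 152779 peaks of replicate 2. They made up 2.87% of the first list and 0.478% of the second. The samples came from U937 cells, an established human myeloid line grown in serum-containing medium with no other treatment or modification in the labels. DEK was precipitated in 2 samples, and trimethylated lysine 4 of histone H3 (H3K4me3), a mark of active promoters, in 2 more. For the 2 samples of non-precipitated chromatin no peaks were analysed here. The interval was chosen by the density, sharing, tags and width of its DEK peaks, so that these values are given as descriptions without a test.

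DEK is an abundant chromatin protein that binds DNA with little sequence preference, favours crossed and supercoiled DNA, and was found as a partner in a leukaemia fusion gene. In chromatin immunoprecipitation, fragments held by an antibody are sequenced as tags, and a peak is a stretch where the tags outnumber those expected from the local background. Genomic segments with more DNA copies give more fragments with or without an antibody, which is why a control of non-precipitated chromatin is sequenced alongside. The long arm of chromosome 13 carries a few genes far apart at 13q31. Among them are SPRY2, an inhibitor of growth factor receptor signalling, SLITRK1, SLITRK5 and SLITRK6, neuronal membrane proteins, GPC5 and GPC6, cell surface heparan sulfate proteoglycans, and MIR17HG, the host of the miR-17-92 cluster of microRNAs, which is known as an oncogene of blood cancers.

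The name gene desert was checked against the annotation. The interval held 15 protein-coding genes, or 0.890 per assembled Mb, against 3.90 per Mb in the rest of chromosome 13, and its GC content was 35.8% against 39.1%. Genes of all kinds covered part of it nonetheless, since 19.6% of its bases lay in protein-coding genes and 21.0% in noncoding genes only. The cells were checked by their H3K4me3 peaks at marker genes: 7 of 10 myeloid markers, among them SPI1, CEBPA and MPO, had a peak at the start site in both H3K4me3 lists. LYZ, AZU1 and CSF1R did not. None of 2 erythroid and 2 epithelial or liver markers had such a peak.

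The sequences under 3 of the peaks are shown because the results below turn on them: the strongest peak of replicate 1, and the peaks shared by both lists at SPRY2 and at MIR17HG. Each window has 201 bases of the plus strand of GRCh37, which has the chromosome 13 sequence of hg19. Capitals mark matches on either strand to GAGGAAG (PU.1), TGTGGT (RUNX1), GGGCGG (SP1) or CACGTG (USF1). A match is only a run of letters and does not show that the factor was bound.
Strongest peak of replicate 1, chr13:87776413-87776613: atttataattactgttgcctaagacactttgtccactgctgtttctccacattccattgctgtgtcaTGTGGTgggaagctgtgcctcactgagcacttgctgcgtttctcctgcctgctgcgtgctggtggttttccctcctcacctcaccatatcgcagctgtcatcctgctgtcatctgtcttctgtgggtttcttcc
Shared peak in SPRY2, chr13:80914316-80914516: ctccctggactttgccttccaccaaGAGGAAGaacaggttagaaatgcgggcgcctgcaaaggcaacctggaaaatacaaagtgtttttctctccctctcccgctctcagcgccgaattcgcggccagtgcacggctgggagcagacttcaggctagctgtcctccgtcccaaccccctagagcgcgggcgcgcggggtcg
Shared peak in MIR17HG, chr13:92001302-92001502: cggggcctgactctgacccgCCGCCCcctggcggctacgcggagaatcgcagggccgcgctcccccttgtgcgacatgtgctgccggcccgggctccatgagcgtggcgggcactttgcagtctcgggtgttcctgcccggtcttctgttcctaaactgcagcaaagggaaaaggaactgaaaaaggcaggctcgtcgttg
The first window has 50.2% GC and 1 RUNX1 match. Both shared windows shown are richer in GC, at 60.7% in SPRY2 with 1 PU.1 match and 65.2% in MIR17HG with 1 SP1 match. They lie near start sites and do not stand for all shared peaks. Another shared window, chr13:87688728-87688928, had 39.8%. Within 150 bp of the middle, shared peaks had a median of 46.8% in replicate 1 and 50.8% in replicate 2. Unshared peaks had 44.2% and 49.2%.

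All replicate 1 peaks were deposited with a false discovery rate of 100%. MACS estimates this rate by exchanging precipitate and control, so that 100% means that the control called against the precipitate gave about as many peaks or more at that score. All replicate 1 values below, the density included, carry this limit, and its cause was not tested. For replicate 2 the rate lay between 0.74% and 2.35% in the interval. Total reads per precipitation were not available here. The authors state only a minimum number of reads per sample, so the exact depth behind each list is unknown.

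DEK peaks were dense in the interval, most of all in replicate 1. That list had 25.6 peaks per assembled Mb there (95% Poisson interval 23.2 to 28.1) and 4.14 in the rest of chromosome 13 (3.70 to 4.62), a ratio of 6.18 (5.34 to 7.16). The interval has 17.6% of the assembled bases of chromosome 13 and held 56.9% of the peaks that replicate 1 had on the chromosome (95% Wilson interval 53.4% to 60.4%). Replicate 2 had 43.3 peaks per Mb in the interval and 29.8 in the rest, a ratio of 1.45 (1.34 to 1.58), and 23.7% of its chromosome 13 peaks lay there. Both lists thus had more peaks per Mb in the interval than elsewhere on the chromosome, but by factors whose intervals are far apart. Against chromosomes 1 to 22 and X outside the interval the directions differed, with a ratio of 4.98 (4.51 to 5.48) in replicate 1 and of 0.806 (0.748 to 0.867) in replicate 2. All intervals given here cover counting error only, and peaks of 1 list share a library.

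The interval stood apart in the genome in replicate 1. Of the 2637 bins of 1 Mb that are fully assembled, the 20 with the most replicate 1 peaks included 10 from the interval and 2 more from chromosome 13. The median bin held 27.5 replicate 1 peaks in the interval and 4 in the other bins of the genome. None of the 20 densest bins of replicate 2 was in the interval, which had a median of 45.5 peaks per bin against 36 elsewhere in the genome and 21 on the rest of chromosome 13.

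The bounds of the rule did not match the edges of the dense stretch. At the lower bound, the last replicate 1 peak outside (chr13:78997224-78998272, 39 tags) and the first inside (chr13:79024337-79025169, 42 tags) were alike and 26.1 kb apart. At the upper bound, the last peak inside had 35 tags and the first outside 31. For replicate 2, the peaks next to the lower bound had 33 tags outside and 26 inside, and those next to the upper bound had 15 inside and 19 outside. The dense stretch began near 73 Mb, where replicate 1 had a gap of 1025 kb before the peak at chr13:73355295-73356773, and it ended with the peak at chr13:92791333-92792051, after which the next replicate 1 peak was 3046 kb away. These limits of 73 and 93 Mb were read from the profile after it had been seen. Below the lower bound of the rule, at 73 to 79 Mb, replicate 1 had 21.7 peaks per Mb (18.1 to 25.7). From 79 to 93 Mb it had 31.05 (28.2 to 34.1), and from 93 to 96 Mb, still inside the interval, it had a single peak, or 0.333 per Mb. The stretch from 20 to 73 Mb had 2.40 peaks per Mb and that from 96 Mb to the chromosome end 3.70.

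Replicate 2 changed at the same places by a smaller factor. Its density was 24.04 peaks per Mb at 20 to 73 Mb, 46.0 at 73 to 79 Mb, 50.2 at 79 to 93 Mb and 11.7 at 93 to 96 Mb. The ratio of the 79 to 93 Mb stretch to the 93 to 96 Mb stretch was 4.30 in replicate 2 (3.06 to 6.23). The limit of 93 Mb was read from replicate 1, for which this ratio is therefore not given. From 96 Mb on, replicate 2 was dense again, at 41.8 per Mb, where replicate 1 was not.

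**Figure D1:**
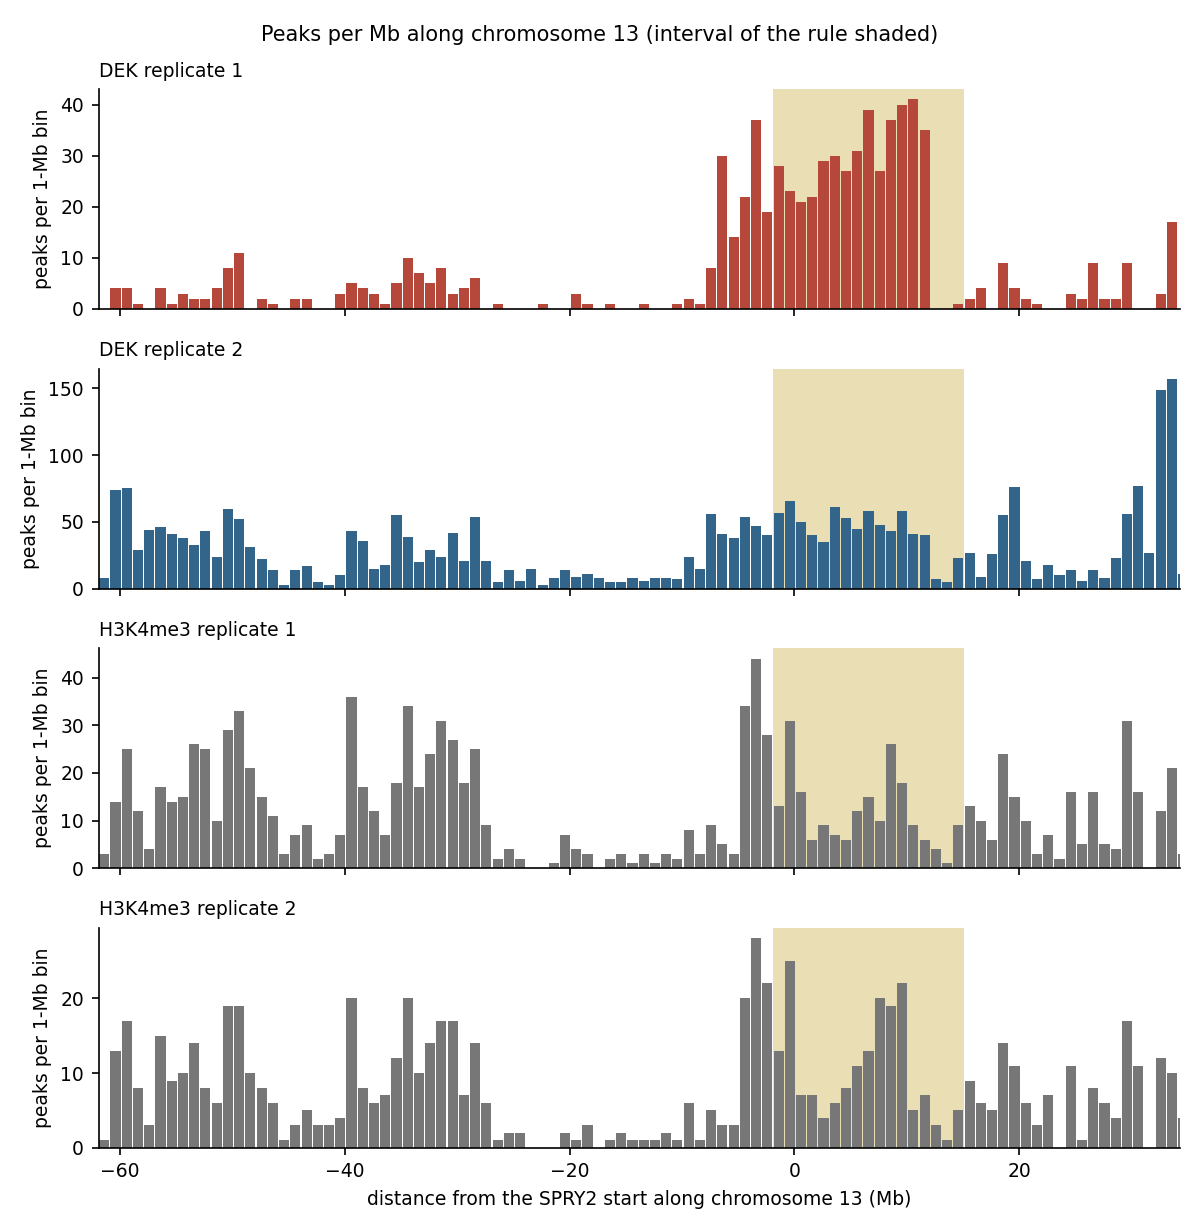
Number of peaks in each 1-Mb bin (bars) along chromosome 13 for both DEK and both H3K4me3 lists, by distance in Mb from the SPRY2 start, with the interval shaded from -1.92 to 15.1 Mb. Replicate 1 of DEK rises near -7.92 Mb and falls to almost no peaks near 12.1 Mb, inside the shaded interval. The H3K4me3 lists rise at another place, from 3 peaks in each list at position 75 to 76 Mb to 34 and 20 at 76 to 77 Mb. They fall from 18 and 22 peaks at 90 to 91 Mb to 9 and 5 at 91 to 92 Mb.

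GPC5 lay across the upper edge. In the 741 kb of the gene up to the last replicate 1 peak of the dense stretch, replicate 1 had 33 peaks and replicate 2 had 35. In the 734 kb of the gene beyond it, replicate 1 had 0 peaks and replicate 2 had 7. The median replicate 2 peak held 44 tags in the first part of GPC5 and 14 in the second. GPC6, the next gene, is 1181 kb long and held 0 replicate 1 peaks and 6 replicate 2 peaks, the largest of 18 tags. The gene was divided at that peak after its position had been seen, so that the 0 of replicate 1 follows from the division.

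Peaks in the interval held more tags than those in the rest of the chromosome. In replicate 1 the lowest, median and highest numbers of tags per peak were 18, 59 and 347 in the interval and 18, 41.5 and 282 in the rest. In replicate 2 they were 12, 39 and 207 in the interval and 12, 16 and 144 in the rest, so that the median was 2.44 times as high. The range of single peaks overlapped almost completely in both lists, and the difference lay in the bulk of the peaks. Median width was 1145 bp against 942 bp in replicate 1 and 880 bp against 612 bp in replicate 2. Per kb of peak, the medians were 51.0 against 44.7 tags in replicate 1 and 43.9 against 26.2 tags in replicate 2.

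Fold enrichment, which the peak caller gives relative to a local background, went the other way. Its median was 4.70 in the interval and 5.86 in the rest in replicate 1, and 4.50 against 5.14 in replicate 2. Dividing the tags per kb by the fold gives an estimate of the local background, called implied background here. The tags per kb are a mean over the whole peak. The deposited values do not say over which bases the fold was taken, so the estimate may also vary with peak width. The median implied background was 10.96 tags per kb in the interval against 7.63 in the rest in replicate 1, a ratio of 1.44. In replicate 2 it was 9.60 against 4.98, a ratio of 1.93. The implied background followed the same edges as the density. In replicate 2 the bin medians lay between 6.79 and 11.8 tags per kb in the 20 bins from 73 to 93 Mb, and between 3.77 and 5.61 in the 77 other bins of chromosome 13, without overlap. In replicate 1 the 20 bins spanned 7.18 to 12.9 and the 52 others with a peak 4.21 to 10.6, which overlap. Across the upper edge the median replicate 2 background fell from 9.84 tags per kb at 79 to 93 Mb to 4.52 at 93 to 96 Mb. Within GPC5 it was 10.95 before the edge and 4.90 beyond it. The peak caller took its background from non-precipitated chromatin, which was not analysed here, and the part of the number of DNA copies in the density of peaks was not tested.

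**Figure D2:**
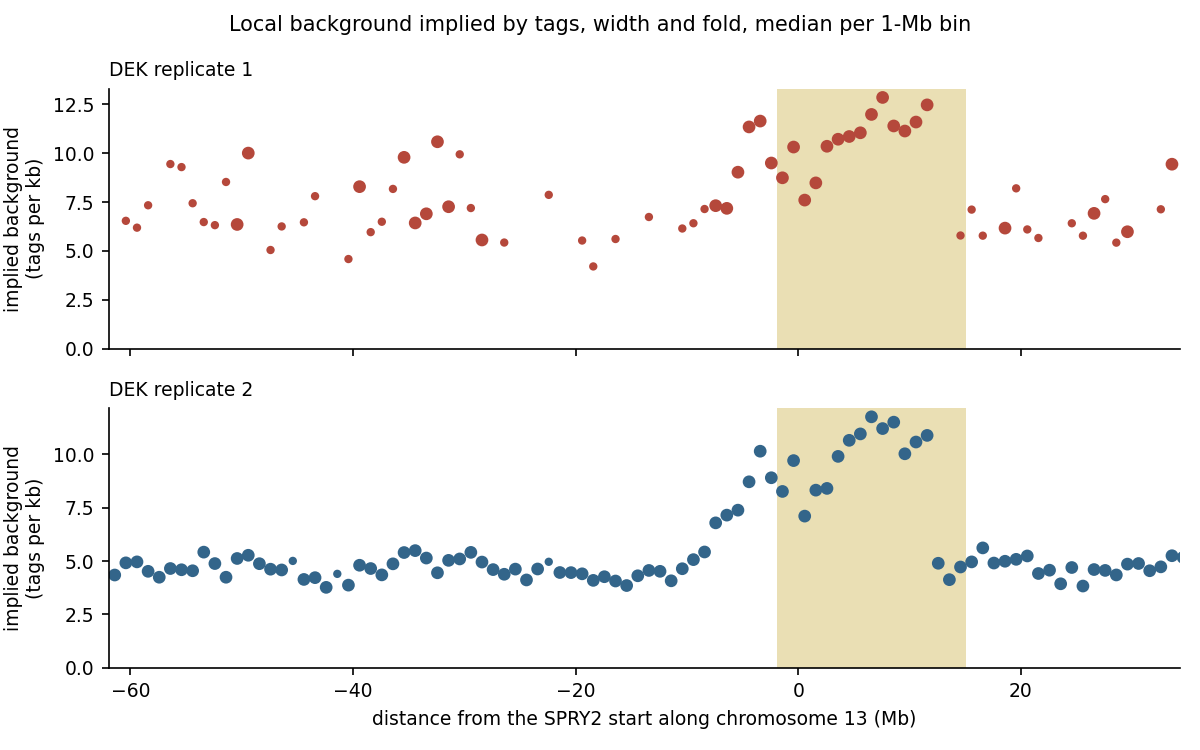
Local background implied by the deposited tags, width and fold of the DEK peaks (tags per kb, median of the peaks in each 1-Mb bin; small points are bins with fewer than 5 peaks), by distance in Mb from the SPRY2 start, with the interval shaded. In replicate 2 the bins from -7.92 to 12.1 Mb lie between 6.79 and 11.8 and all others between 3.77 and 5.61.

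The excess of peaks depended on how strong the peaks were, and differently in the 2 lists. The score of a peak is the negative log10 of its MACS p-value, multiplied by 10. In replicate 2, peaks with a score from 50 to 75 were less dense in the interval than in the rest, with a ratio of 0.831 (0.709 to 0.969), and those with a score of 150 or more were denser, with a ratio of 5.33 (4.28 to 6.65). Between them the ratios were 1.14 (0.952 to 1.35) and 2.10 (1.76 to 2.49). In replicate 1 the ratios of the same classes were 6.74, 7.05, 5.70 and 1.75, the last with an interval of 0.822 to 3.50 on 12 peaks in the interval. When replicate 2 was shortened to its 15017 best peaks, the length of the first list, 53.3% of its chromosome 13 peaks lay in the interval (47.8% to 58.7%) and the ratio was 5.34 (4.25 to 6.70). At equal length both lists thus placed more than 50% of their chromosome 13 peaks in the interval.

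**Figure D3:**
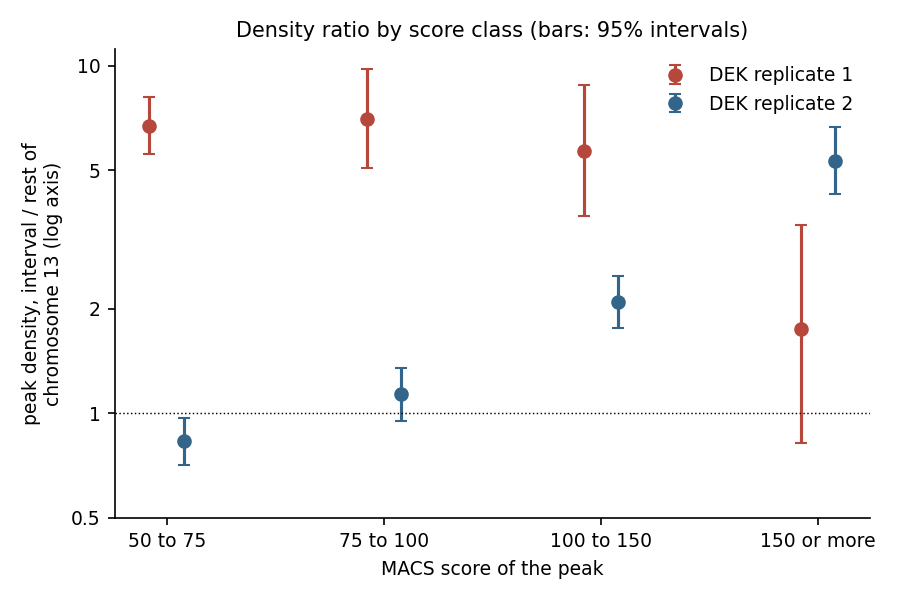
Ratio of DEK peak density in the interval to that in the rest of chromosome 13 (log axis) in 4 classes of peak score, for both replicates, with 95% intervals that cover counting error. The ratio rises with the score in replicate 2, from 0.831 to 5.33, and is lowest in the top class in replicate 1, at 1.75.

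The lists shared few of these peaks. In replicate 1, 82 of the 431 peaks overlapped a replicate 2 peak by at least 1 bp, or 19.03% (15.6% to 23%), against 27.4% of all replicate 1 peaks in the genome and 24.5% in the rest of chromosome 13. In replicate 2, 86 of 730 peaks overlapped a replicate 1 peak, or 11.8% (9.64% to 14.3%), against 2.90% of the whole list and 3.70% in the rest of the chromosome. The replicate 1 difference from the rest of the chromosome was -5.51 points (95% Newcombe interval -11.5 to 0.382), and its direction turned at a score of at least 100 in both lists (19.4% against 10.96%) and with lists of equal length (5.80% against 4.91%). The replicate 2 difference was 8.08 points (5.78 to 10.7). Both shares depend on the length and the local density of the other list. Peaks of replicate 2 covered 4.14% of the interval, and 13.4% of the bases in replicate 1 peaks lay in them, while in the rest they covered 2.05% and held 18.0% of those bases. The overlaps made 86 shared intervals, or 5.10 per Mb against 1.12 per Mb in the rest, and all of them lay between chr13:79214374 and chr13:92728709, within the dense stretch. Shared peaks had a median of 81 tags in replicate 1 against 55 for unshared peaks there, and 43 against 39 in replicate 2.

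Peaks of a pair lie close together by selection, since a pair was defined by overlap. The median distance between the summits was 104.5 bp, and 55 of 86 pairs (63.95%, 53.4% to 73.3%) had summits within 200 bp. In the rest of the chromosome that share was 62.5% (52.1% to 71.9%). Replicate 1 had more tags in 81 of 86 pairs. The same held for 80 of 88 pairs in the rest of the chromosome. On chromosomes 1 to 22 and X outside the interval it held for 3981 of 4347, so this is not particular to the interval. Across the pairs, which share 2 libraries and are not independent, Spearman's rho was 0.280 for tags and -0.153 for scores, against 0.526 and 0.199 in the 88 pairs of the rest.

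**Figure D4:**
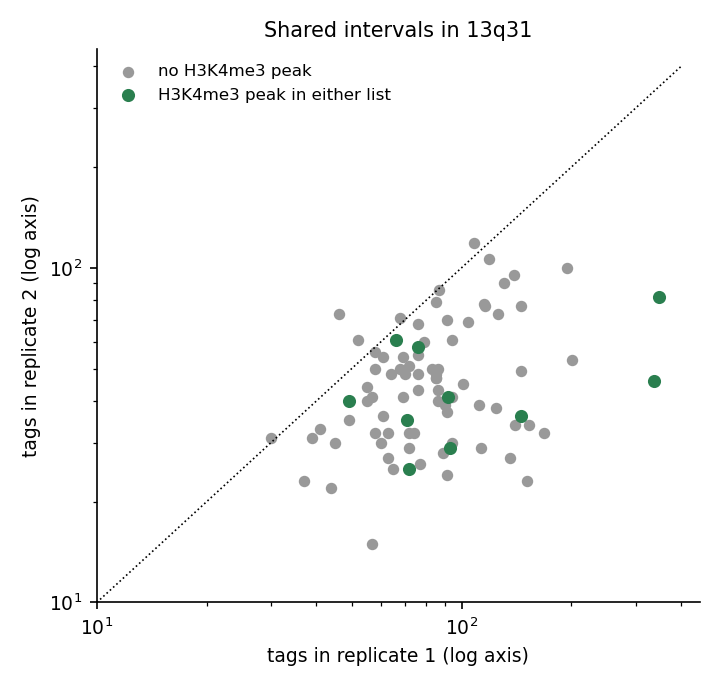
Tags of the 86 shared intervals in replicate 1 (x axis) and replicate 2 (y axis), both on log axes, with the 10 intervals that overlap an H3K4me3 peak in green and the line of equal tags dotted. Most points, 81 of 86, lie below the line, as did 80 of 88 pairs in the rest of chromosome 13 (not drawn). Both points with more than 300 tags in replicate 1 have an H3K4me3 peak.

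The shared interval with the largest lower score, chr13:87687995-87689661, lay in no annotated gene, 635 kb from the SLITRK5 start. It held 195 tags in replicate 1 (score 210) and 100 tags in replicate 2 (score 235), its summits were 19 bp apart and it had no H3K4me3 peak. The second, chr13:84660009-84660567, was 204 kb from the SLITRK1 start, with 85 and 47 tags and summits 1499 bp apart. The third lay in the intron of SPRY2 and is described with that gene. The fourth, chr13:80852304-80853448, was 60.9 kb from SPRY2, with 337 and 46 tags and an H3K4me3 peak in both lists. Ranks 5 to 10 had SPRY2, SLITRK6 or GPC5 as the nearest protein-coding gene, with 57 to 131 tags in replicate 1 and 15 to 90 in replicate 2, and none had an H3K4me3 peak. The rank 7 and 8 intervals belong to the same replicate 1 peak. The rank 9 interval lay in an intron of GPC5.

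Over the whole interval 349 of the 431 replicate 1 peaks and 644 of the 730 replicate 2 peaks were found in 1 list only. The median score of these unshared peaks was lower than that of shared peaks. It was 65.2 against 75.1 in replicate 1 and 100.2 against 112 in replicate 2. The strongest replicate 1 peak, chr13:87775955-87777321, held 345 tags at a score of 1510 and a fold of 21.3. It lay between genes, 547 kb from SLITRK5, in single-copy sequence, overlapped H3K4me3 peaks in both lists, and no replicate 2 peak overlapped it. Of the 5 replicate 1 peaks with the highest scores, 4 were unshared, as were most replicate 1 peaks there. An H3K4me3 peak overlapped 4 of the 5, against 11.1% of all replicate 1 peaks in the interval. The strongest replicate 2 peak, chr13:87919616-87922519, held 207 tags at a score of 671 and a fold of 7.55. None of the 5 strongest replicate 2 peaks was shared or overlapped an H3K4me3 peak, against 11.8% and 8.49% of all replicate 2 peaks in the interval. Each contained, within 150 bp of its middle, a 24-mer with at least 70438 copies in the genome. The share of all peaks with such a 24-mer is not given here. Repeated sequence was common in this list, since 66.9% of its windows in the interval had under 50% single-copy 24-mers.

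DEK peaks of replicate 1 met H3K4me3 far less often in the interval than elsewhere. The share that overlapped an H3K4me3 peak of either list was 11.1% in the interval (48 of 431, 8.50% to 14.5%), 47.5% in the rest of chromosome 13 (42.2% to 53.0%) and 51.3% in the whole list. The difference from the rest was -36.4 percentage points (95% Newcombe interval -42.4 to -30.1). The H3K4me3 lists were not used by the rule, but the DEK peaks were. In replicate 2 the share was 8.49% (62 of 730) against 9.28% in the rest and 11.0% in the whole list, and the difference of -0.787 points had an interval from -2.98 to 1.72. With a peak required in both H3K4me3 lists, replicate 2 had 3.97% in the interval against 7.11% in the rest, a difference of -3.14 points (-4.77 to -1.20). The adjoining dense stretch at 73 to 79 Mb resembled the interval in replicate 1, with 16.9% (11.5% to 24.3%), whereas 20 to 73 Mb had 68.5%. Replicate 1 peaks without H3K4me3 had a density of 22.7 per Mb in the interval and 2.17 in the rest, and those with it 2.85 and 1.97 per Mb. The surplus of replicate 1 peaks thus lay mostly in peaks away from the mark.

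Fewer peaks lay near genes in the interval, which was chosen as a gene-poor stretch. It had 324 annotated transcript starts in 16.85 assembled Mb, against 4377 in 78.74 Mb in the rest. The shares expected from the placement of these starts alone were not computed. The differences below therefore do not separate the placement of DEK from that of the genes. The middle of a peak was within 1 kb of a transcription start site (TSS) for 18 of 431 replicate 1 peaks, or 4.18%, against 14.1% in the rest and 16.4% in the whole list. In replicate 2 it was so for 31 of 730, or 4.25%, against 11.6% in the rest and 16.8% in the whole list. The differences from the rest were -9.93 points (-14.4 to -5.85) and -7.37 points (-9.22 to -5.26). A middle farther than 50 kb from any TSS was found in 38.1% of the replicate 1 peaks and 39.0% of the replicate 2 peaks, against 14.1% and 10.1% in the rest. By element, 61.9% of replicate 1 and 64.4% of replicate 2 peaks were intergenic, and the interval itself was 59.3% intergenic. Introns of protein-coding genes held 9.28% and 10.4%, while such genes, exons included, covered 19.6% of the bases. These 2 measures are not alike, and much of the gene sequence lies beyond the dense stretch. It includes GPC6 (1181 kb) and the last 734 kb of GPC5, where replicate 1 had 0 peaks and replicate 2 had 6 and 7. The share of gene bases within the dense stretch was not computed, so no depletion from genes can be read from these values.

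**Figure D5:**
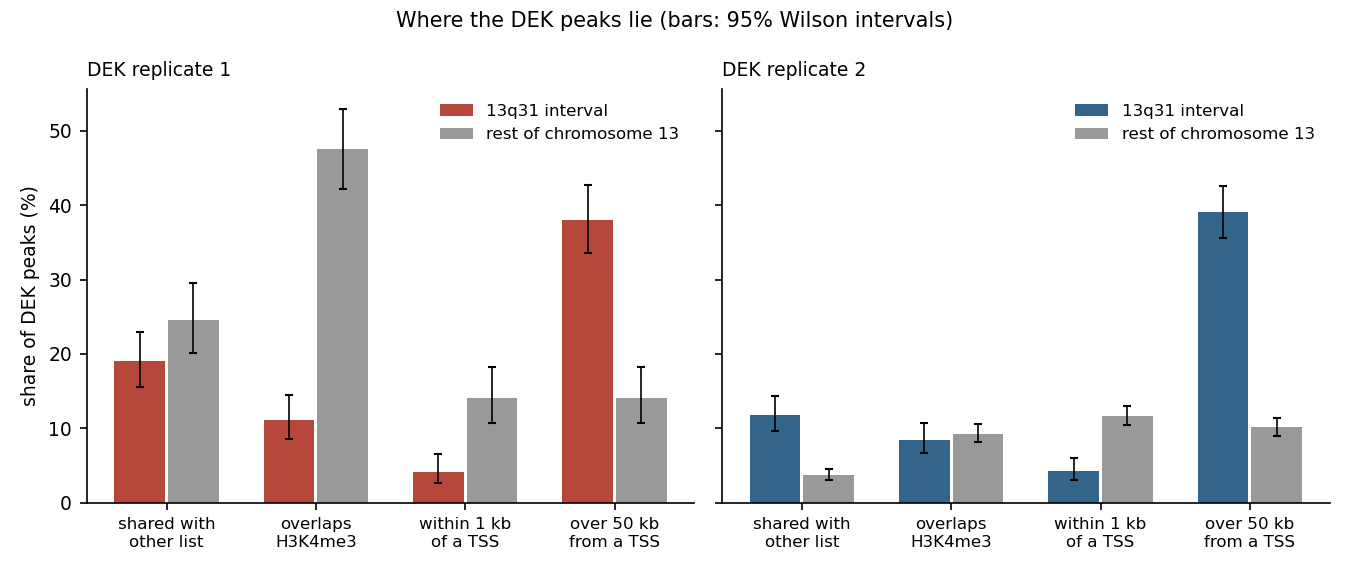
Share of DEK peaks (%) that were shared with the other list, overlapped an H3K4me3 peak, or had the middle within 1 kb of or over 50 kb from a TSS, in the interval (coloured) and the rest of chromosome 13 (grey), with 95% Wilson intervals. The H3K4me3 bars of replicate 1 differ most, at 11.1% and 47.5%.

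The density of the H3K4me3 peaks differed less between the interval and the rest. H3K4me3 replicate 1 had 11.8 peaks per Mb in the interval and 12.3 in the rest, a ratio of 0.953 (0.814 to 1.11). H3K4me3 replicate 2 had 10.4 and 7.57 peaks per Mb, a ratio of 1.38 (1.16 to 1.64). Within the interval 8.08% and 8.52% of these peaks lay within 1 kb of a TSS, against 24.7% and 38.8% in the rest. They also differed in how far the lists repeated each other. Of the H3K4me3 replicate 2 peaks, 62.5% (110 of 176) overlapped a peak of the other H3K4me3 list in the interval and 92.8% (553 of 596) in the rest, a difference of -30.3 points (-37.9 to -23.1). For H3K4me3 replicate 1 the shares were 55.6% and 55.5%. The H3K4me3 density was higher at 73 to 79 Mb than at 20 to 73 Mb. The ratios were 1.74 (1.42 to 2.11) and 1.94 (1.505 to 2.47), where DEK replicate 2 had 1.91. The rise came at 76 Mb, from 3 peaks in each list at 75 to 76 Mb to 34 and 20 at 76 to 77 Mb. The 79 to 93 Mb stretch had 2.85 and 4.02 times the density of the 93 to 96 Mb stretch. H3K4me3 peaks became fewer before 93 Mb, from 18 and 22 at 90 to 91 Mb to 9 and 5 at 91 to 92 Mb.

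SPRY2 carried the shared peak at a protein-coding start. In replicate 1 a peak at chr13:80912537-80915931 held 347 tags (score 134, fold 3.67), the most of any replicate 1 peak in the interval. In replicate 2 the peak at chr13:80913817-80915015 held 82 tags (score 265, fold 3.97), and both overlapped H3K4me3 peaks in both lists. It was the only one of the 15 protein-coding genes with a shared interval within 1 kb of a start site, counted from the edge of the peak. Of its relatives on other chromosomes, SPRY1 had a shared interval at the start, while SPRY4 had a peak there in each list that did not overlap, and SPRY3 had no peak there.

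The neuronal genes had peaks in 1 list each. At SLITRK6, a replicate 1 peak of 62 tags (chr13:86381472-86382705) lay 654 bp from a start site. At SLITRK5, a replicate 2 peak of 69 tags covered a start site of the gene and one of the noncoding MIR4500HG, and a second of 139 tags lay in its coding exon. SLITRK1 had no peak at the start and a replicate 2 peak of 85 tags in its body. At no start site of these SLITRK genes was there an H3K4me3 peak in either list. H3K4me3 replicate 1 had 1 peak in the body of SLITRK5 and 1 within 1 kb of a MIR4500HG start site. SLITRK2 and SLITRK3 on other chromosomes had no DEK peak, and SLITRK4 had a replicate 1 peak and H3K4me3 peaks in both lists at the start.

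Starts with H3K4me3 in both lists were found at POU4F1, a neural transcription factor, OBI1, a ubiquitin ligase, RBM26, an RNA-binding protein, SPRY2, GPC5, TGDS, GPR180 and ABCC4, a membrane transporter. DEK peaks within 1 kb of any start site of these genes were mostly those of replicate 2. POU4F1 had 2 (26 and 29 tags), OBI1 had 2 (58 and 42 tags) and RBM26 had 2 (32 and 31 tags). The DEK peaks at RBM26, which has 6 start sites, overlapped no H3K4me3 peak in either list. GPC5 had 1 DEK peak (98 tags) and GPR180 had 1 (13 tags). TGDS and ABCC4 had none. Replicate 1 had a peak near a protein-coding start at SPRY2 and SLITRK6 alone among the 15 genes. DCT, which acts in pigment synthesis, had H3K4me3 at its start in 1 list and no DEK peak, and SOX21, a neural transcription factor, had neither. NDFIP2, an adaptor of ubiquitin ligases, had no peak at its start and a shared interval in its intron.

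MIR17HG had a shared peak at its start. Replicate 1 had 93 tags at chr13:92000922-92002005 (score 53.6, fold 6.47) and replicate 2 had 29 tags at chr13:92001193-92001611 (score 94.99, fold 3.91), with summits 8 bp apart and H3K4me3 in both lists. The 6 hairpins of the miR-17-92 cluster, located by exact match of their RefSeq sequences, lie at chr13:92002859-92003645. The first of them, MIR17, begins 854 bp beyond the end of the replicate 1 peak and 1248 bp beyond that of replicate 2, and no DEK peak overlapped a hairpin. By the lower of its scores this interval ranked 75 of the 86 shared intervals.

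The sequence under the peaks was compared in the same way. In windows that reach 150 bp to either side of the middle of the peak, the median GC content in the interval was 44.5% in replicate 1 and 49.5% in replicate 2, against 47.8% and 52.8% in the rest. Windows made largely of repeated sequence, with a median of 10 or more genome copies of their 24-mers, were 11.8% of the replicate 1 and 54.8% of the replicate 2 windows in the interval, against 14.4% and 49.0% in the rest. GAGGAAG, the PU.1 motif, was found in 4.64% of the replicate 1 windows (3.02% to 7.06%) against 15.6% in the rest (12.1% to 19.99%). TGTGGT was found in 20.6% against 28.8%, GGGCGG in 4.41% against 10.4% and CACGTG in 2.78% against 4.29%. The shares were closer in replicate 2, with 3.97% against 5.24% for GAGGAAG, 19.6% against 20.4% for TGTGGT, 22.3% against 25.7% for GGGCGG and 2.88% against 4.64% for CACGTG.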

How the data were processed

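Chromatin from U937 cells was precipitated with a DEK or an H3K4me3 antibody in 2 samples each. Bowtie 2 (alignment, hg19) and MACS 1.4.1 (peaks, 1 call per precipitation, non-precipitated chromatin as control) were run by the authors with their default settings. The deposited DEK lists give for each peak a count of tags that the authors did not normalize, a score (−log10 of the MACS p-value, multiplied by 10), a fold (ratio) over the local background and a false discovery rate in percent. The deposited H3K4me3 lists give positions only, in unit other.

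Peaks were assigned to chr13:79000000-96000000 by any overlap. Densities used assembled (non-N) bases. Shares have 95% Wilson intervals, densities Poisson intervals, density ratios exact conditional intervals and differences of shares Newcombe intervals; no test was run, since the rule used these values. Genes came from GENCODE release 44 mapped to GRCh37, sequences from GRCh37. Markers were called by an H3K4me3 peak within 1 kb of a TSS in both lists. Genes named are the protein-coding genes of the interval, MIR17HG, MIR4500HG, which has a start site beside that of SLITRK5, and the relatives of SPRY2 and the SLITRK genes. Single peaks named are the 10 shared intervals with the largest lower score, the strongest peaks of each list, and peaks at named genes and edges; MIR4500HG and the limits of the dense stretch were chosen after their values were seen. The interval, gene lists and motifs were chosen with earlier results of these data known. Some markers and peak sequences are not reported here. Overlap and interval code was tested on simulated data. The scripts ran in Python 3.11.15 with SciPy 1.17.1 for intervals, pandas 2.3.3 and NumPy 2.4.6 for tables, Numba 0.67.0 for 24-mer counts and Matplotlib 3.10.9 for plots.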

Additional observations from a re-analysis of the deposited data

How the results depend on the processing

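Of 99 recomputed values, 94 kept their direction against the rest of chromosome 13. The density ratio of DEK replicate 1 was 7.64 over the whole length with unassembled bases, 3.97 at a score of at least 100 and 4.98 against chromosomes 1 to 22 and X, and that of replicate 2 was 1.79, 2.95 and 0.806, which turned its direction. With the replicate 2 list as long as replicate 1 it was 5.34. Over the whole length the H3K4me3 ratios were 1.18 in replicate 1, a turned direction, and 1.71 in replicate 2.

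The replicate 1 share of shared peaks was 12.8% with 50% of each peak overlapping, 27.4% within 1 kb, 19.4% at a score of at least 100 in both lists (10.96% in the rest) and 5.80% with lists of equal length (4.91% in the rest). In both of the last pairs the direction turned. The replicate 2 shares were 7.53%, 16.6%, 3.48% and 15.4%. At a score of at least 100 the median replicate 1 peak had 97.5 tags and 1562 bp.

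Within 2 kb and 5 kb of a TSS lay 7.19% and 11.8% of replicate 1 peaks and 6.71% and 13.7% of replicate 2 peaks. Near protein-coding starts only, within 1 kb, the shares were 0.232% and 1.10%. H3K4me3 in both lists was met by 5.57% and 3.97%, and within 1 kb by 11.5% of replicate 2 peaks. Over whole peaks the median GC content was 40.2% and 41.9%.

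Alternatives chosen after seeing the data gave density ratios of 9.49 in replicate 1 without 73 to 79 Mb in the rest, and of 7.50 and 1.68 with only 79 to 93 Mb. Without repeated windows the replicate 2 ratio was 1.29, shared peaks were 12.1% and 14.6%, and 12.4% of replicate 2 peaks met H3K4me3.

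With each replicate left out in turn, the mean density ratio lay between 1.45 and 6.18 for DEK and between 0.953 and 1.38 for H3K4me3, where the direction turned. The share near a TSS lay between 4.18% and 4.25%, that with H3K4me3 between 8.49% and 11.1%, median tags between 39 and 59, median width between 880 and 1145 bp and GC content between 44.5% and 49.5%. No paired analysis was possible because the values come from no test between groups.

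With 2 precipitations the spread between replicates could not be estimated well, and the exact depth of each is unknown. DNA copies of the segment were not measured in the files analysed here, and their part in the density of peaks was not tested.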
